A study of Mus musculus with 26 samples.

Results

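10 genes of the neuronal microtubule cytoskeleton were described across the culture conditions of mouse motor neuron spheroids. They are the tubulin genes Tubb3, Tubb2a, Tubb2b and Tuba1a and the microtubule-associated protein genes Map2, Map1a, Map1b, Mapt, Dcx and Dclk1. The members were chosen by name, as the rows of the deposited tables that carry these symbols, and all 10 were found among 56941 genes. The spheroids were grown from mouse embryonic stem cells of the HBG3 line, derived from heterozygous blastocysts, in which the promoter of the motor neuron gene HB9 (Mnx1) drives green fluorescent protein. All groups were differentiated with retinoic acid and purmorphamine, given CNTF and GDNF from day 5, and seeded as spheroids on fibrin at about day 8. In the mechanical arm the spheroids sat on a magnetic silicone array, either actuated at 4 Hz for 30 min daily (actuated array, 4 libraries) or never moved (static array, 4 libraries). In the biochemical arm they were labelled high intensity, low intensity or control (6 libraries each). The design text describes medium conditioned by optogenetic muscle with or without light stimulation, under sample names that are not matched to high and low intensity, so these groups are named by intensity only. The cells are of 1 line, and nothing states that replicates came from separate differentiations, so the p-values measure the spread between these libraries, which may be technical.

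Microtubules are hollow polymers of alpha- and beta-tubulin dimers that give axons and dendrites their shape and carry the motor-driven transport of cargo. Vertebrates encode several isotypes of each tubulin. Tubb3 is largely restricted to neurons, Tubb2a and Tubb2b are abundant in brain, and Tuba1a is the leading alpha-tubulin of developing neurons. Microtubule-associated proteins bind along the polymer. MAP2 marks dendrites, tau (Mapt) is enriched in axons, MAP1A and MAP1B are large scaffold proteins of mature and growing neurites, and doublecortin (Dcx) with its kinase relative Dclk1 stabilises microtubules in migrating and young neurons.

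Depth limits what these libraries can show. Tests used the 21 deeper libraries, each with protein-coding counts above 1000000, which are 5 control, 5 low-intensity, 4 high-intensity, 3 static-array and 4 actuated-array libraries. Their totals were 7269276 to 9839951 counts on the actuated array, 7724923 to 13162635 on the static array, 2273487 to 3771637 in controls, 2408099 to 3971348 at high intensity and 1551334 to 3602716 at low intensity. The 5 left out were static-array replicate 3, replicates 4 and 5 at high intensity, replicate 6 at low intensity and control replicate 4. Low-intensity replicate 6 held 1536 counts in all, with 9 of the 10 members at 0. The 7 pan-neuronal and the 7 motor neuron markers examined had counts in every group, with group means of the summed levels of 1321 to 1675 and 81.7 to 127 CPM (counts scaled to a library total of 1000000), and markers of astrocytes, neural progenitors and fibroblasts were also present. The members took 1.20 to 2.12% of all counts in the 21 libraries. No member was lost to the low-count filter, and the lowest member count in any of the 21 libraries was 543 (Dcx). The arms differ in depth as well as in platform, and these cannot be told apart in any comparison of static array with control.

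The tubulin members have close relatives, which matters for 50-base reads. The last 90 coding bases, up to the stop codon, encode the acidic tail of each tubulin and are shown for the 3 beta-tubulin members because they let a reader see how far a short read can tell the isotypes apart. They were read from the reference genome GRCm38 with the GENCODE M21 annotation, which may not be the build the authors used, and are written 5′ to 3′ on the coding strand. Capitals mark the bases that differ from the partner named with each sequence. Tubb2a lies at chr13:34074468-34074557 and Tubb2b at chr13:34127471-34127560, both on the minus strand, in their final coding exons, and each is compared with the other. Tubb3 lies at chr8:123421593-123421682 on the plus strand and is compared with Tubb2b.
Tubb2a: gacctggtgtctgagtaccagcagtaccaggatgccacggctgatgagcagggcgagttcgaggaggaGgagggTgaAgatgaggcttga
Tubb2b: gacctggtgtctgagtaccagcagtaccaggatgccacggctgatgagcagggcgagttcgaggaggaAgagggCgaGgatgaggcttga
Tubb3: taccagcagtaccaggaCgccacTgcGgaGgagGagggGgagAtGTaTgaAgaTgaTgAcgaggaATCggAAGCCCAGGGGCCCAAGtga
Tubb2a and Tubb2b differed at 3 of these 90 bases, and 34 of those shown for Tubb3 are in capitals, 19 mismatches to Tubb2b and 15 extra bases with no counterpart there, since the Tubb3 coding sequence is longer.

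Over the whole coding sequence Tubb2a matched Tubb2b at 96.5% of 1338 bases, Tuba1a matched Tuba1b at 98.3% of 1356 bases, and Tubb3 matched Tubb2b at 84.4%. Of the 50-base windows of the annotated transcript with the longest coding sequence, 72.9% in Tuba1a, 49.6% in Tubb2a and 39.3% in Tubb2b also occurred in another gene. Tubb3 and the genes Map2, Map1a, Map1b, Mapt and Dclk1 had no such window, and Dcx had 0.25%. How the authors divided reads between near-identical copies is not given in the sources used here. Values of Tuba1a, Tubb2a and Tubb2b alone are therefore less certain than those of the other members, and their sums with their relatives are given beside them.

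All 10 genes were expressed in every one of the 21 libraries, over a wide range of levels. Levels between genes were compared per transcript length, as TPM rescaled so that protein-coding genes sum to 1000000 in each library (protein-coding TPM). Averaged over the 5 group means, Tuba1a was highest at 2841, followed by Map1b at 2389, Mapt at 1361, Tubb2b at 1134, Tubb2a at 952, Map2 at 839.6, Tubb3 at 758, Map1a at 271, Dclk1 at 198 and Dcx at 170.3. Map1b stood above Mapt, Tubb3 above Map1a and Map1a above Dclk1 in 21 of 21 libraries. Neighbours were less clearly ordered elsewhere. Tuba1a exceeded Map1b in 16 libraries, Tubb2a exceeded Map2 in 14, Map2 exceeded Tubb3 in 17 and Dclk1 exceeded Dcx in 15, so these pairs are not separated beyond their spread between libraries.

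**Figure D1:**
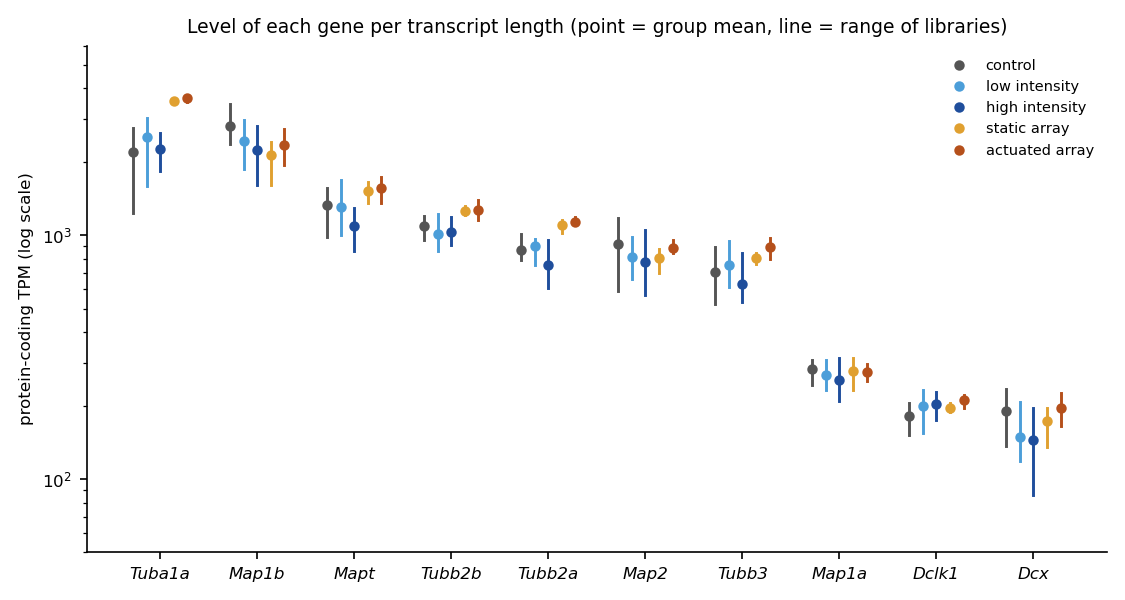
Level of each of the 10 genes as protein-coding TPM on a log axis, by group; points are group means and lines run from the lowest to the highest library. Tuba1a stands highest on both arrays, and Map1b, the second gene in the order, has its highest mean in controls.

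By group mean Map1b led in controls and Tuba1a in every other group. Among protein-coding genes Map1b ranked 24 and Tuba1a 36 in controls by mean level, whereas on the static and actuated arrays Tuba1a ranked 16 and 15 and Map1b 40 and 37. Map1b in controls averaged 2797 ± 449.7 protein-coding TPM (SD, n = 5) and Tuba1a 2201 ± 733. The control medians ran the other way, at 2568 for Map1b and 2686 for Tuba1a. Tuba1a was above Map1b in control replicates 1, 5 and 6. Map1b and Tuba1a averaged 2442 and 2534 at low intensity, and 2231 and 2261 at high intensity. On the actuated array the values were 2341 ± 316 and 3645 ± 78.1 (SD, n = 4). The ratio of the highest to the lowest group mean was 1.66 for Tuba1a, 1.502 for Tubb2a, 1.44 for Mapt and 1.42 for Tubb3. It was lowest for Map1a at 1.101, Dclk1 at 1.16 and Map2 at 1.19. These ratios are descriptions of the levels and were not tested.

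Tubb3, the isotype used to mark neurons, is given here as CPM after TMM scaling, which corrects for library composition. It measured 479.9, 491, 605, 588 and 639 in controls, 495, 524, 641, 601 and 520 at low intensity and 407, 463, 419 and 622 at high intensity. On the static array it measured 655, 657 and 636, and on the actuated array 713, 618, 734 and 654. High-intensity replicate 6 stood well above the other 3 high-intensity libraries, and every group overlapped the controls. No edgeR comparison of Tubb3 passed the threshold, an adjusted p under 0.05 (a gene past it is said to be called). Among the pairs of groups tested, its largest difference was −0.23 log2 units (SE 0.121, edgeR adjusted p = 0.367), for high intensity against control. The 95% interval ran from −0.48 to 0.02. Group means lay furthest apart between high intensity (478 CPM) and the actuated array (680 CPM), a pair that was not tested. The actuation difference set against the high-intensity difference gave 0.29 log2 units (SE 0.182, edgeR adjusted p = 0.829).

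Tuba1a was the only member called in any of the 6 comparisons, and it was higher on the static array than in controls. It measured 2788, 2887 and 2888 CPM on the static array against 2051, 1117, 1393, 2051 and 2021 in controls, so the groups did not overlap. The actuated array gave 2871, 2724, 2997 and 2893 CPM, a range that includes the static-array values. The low-intensity libraries measured 1810, 2196, 2316, 2137 and 1379 CPM and the high-intensity libraries 1340, 1892, 1536 and 1858. Between static array and control the difference was 0.73 log2 units (SE 0.171, 95% interval 0.373 to 1.077), or 1.65-fold, with an edgeR adjusted p = 0.0444. In this comparison 0.713% of the 14730 genes fitted were called, against 1 of 10 members. An unadjusted p under 0.05 was reached by 3 members (Tuba1a and Tubb2a higher, Map1b lower) and by 12.6% of all genes. The call is close to the threshold. It was lost with all 26 libraries (0.62 log2 units, adjusted p = 1), with only both groups fitted (adjusted p = 0.129), after thinning to an equal total count (adjusted p = 0.0547), by limma on protein-coding TPM (0.77, adjusted p = 0.248), with the replicate number as a block (0.75, adjusted p = 0.150), and in 11 of 21 fits that left out 1 library, namely any 1 of the static-array (adjusted p = 0.111, 0.169 and 0.193) or actuated-array libraries (0.0520 to 0.0605), control replicate 2 or 3 (0.0718 and 0.0923) and low-intensity replicate 2 or 4 (0.0521 and 0.0533).

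The alpha-tubulin rise was also called with its near-identical copies added together. The summed counts of Tuba1a, Tuba1b and Tuba1c were 0.70 log2 units higher on the static array than in controls (SE 0.157, edgeR adjusted p = 0.0354). Tuba1a made up 77.1% ± 3.05 of summed alpha-tubulin TPM in controls (SD, n = 5), 77.4% ± 3.97 at low intensity, 76.5% ± 3.595 at high intensity, 80.5% ± 0.619 on the static array and 81.2% ± 0.391 on the actuated array. Its share was 3.46 percentage points higher on the static array than in controls, with no overlap, although the groups overlapped once the shallow libraries were included. The exact two-sided permutation test gave p = 0.0357, the smallest that 3 against 5 libraries can give, and adjusted p = 0.357 over the 10 share tests. The Tuba4a share averaged 4.92% in controls and 2.88% on the static array, a difference that was not tested. Control replicate 2 stood at 7.935%, and the control median was 4.07%. Tuba4a itself was not lower on the static array, at 72.6 ± 8.85 CPM against 62.75 ± 15.5 in controls (SD).

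Among the beta-tubulins, Tubb2a had its highest levels on both arrays, but no edgeR comparison passed the threshold. It measured 786, 832 and 711 CPM on the static array and 806, 760.4, 790 and 764 on the actuated array, against 544, 628, 645, 585 and 654 in controls. Low-intensity libraries measured 621, 633, 652, 618 and 578, and high-intensity libraries 449, 491, 404 and 592. Static array and control did not overlap, with a difference of 0.35 log2 units (SE 0.106, 95% interval 0.13 to 0.56, edgeR adjusted p = 0.133). The difference of high intensity from control was −0.34 log2 units (SE 0.0990, adjusted p = 0.102) and that from low intensity −0.36 (SE 0.0991, adjusted p = 0.317). DESeq2 called all 3 of these Tubb2a differences, with adjusted p = 0.0462, 0.0207 and 0.0255, in comparisons where it called 2.59%, 3.17% and 0.876% of all genes.

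Tubb2b, the near copy of Tubb2a, had a smaller ratio between its highest and lowest group means in protein-coding TPM (1.25). It measured 977, 1338, 1038, 1008 and 1095 CPM in controls, 1202, 1354 and 1197 on the static array, 1200, 1107, 1419 and 1249 on the actuated array, 876, 874, 1164, 1051 and 925 at low intensity and 833, 975.3, 851 and 1042 at high intensity. All groups overlapped the controls. The static-array difference was 0.20 log2 units (SE 0.121, edgeR adjusted p = 0.530) and the high-intensity difference −0.24 (SE 0.112, adjusted p = 0.299). With Tubb2a and Tubb2b counts summed, the static-array difference was 0.25 log2 units (adjusted p = 0.319) and the high-intensity difference −0.27 (adjusted p = 0.180). The ratio of Tubb2b to Tubb2a TPM was 1.27 ± 0.148 in controls, 1.12 ± 0.126 at low intensity, 1.39 ± 0.123 at high intensity, 1.14 ± 0.0576 on the static array and 1.13 ± 0.114 on the actuated array (SD), a description in which the range of each group overlapped that of the controls.

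Beta-tubulin was shared among several isotypes in every group. In controls the ubiquitous isotype Tubb5 made up 26.3% of summed beta-tubulin TPM, Tubb2b 24.6%, Tubb2a 19.5%, Tubb3 15.8%, Tubb4b 9.32%, Tubb4a 3.96% and Tubb6 0.710%. The Tubb3 share was 15.8% ± 1.94 in controls, 16.2% ± 2.38 at low intensity, 14.5% ± 1.54 at high intensity, 15.1% ± 0.989 on the static array and 16.3% ± 1.20 on the actuated array (SD). None of its 5 comparisons reached p = 0.05 in exact permutation tests, the lowest being p = 0.229 for actuated against static array, where 4 against 3 libraries cannot give less than 0.0571. The Tubb4b share was 12.6% on the static array against 9.32% in controls.

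**Figure D2:**
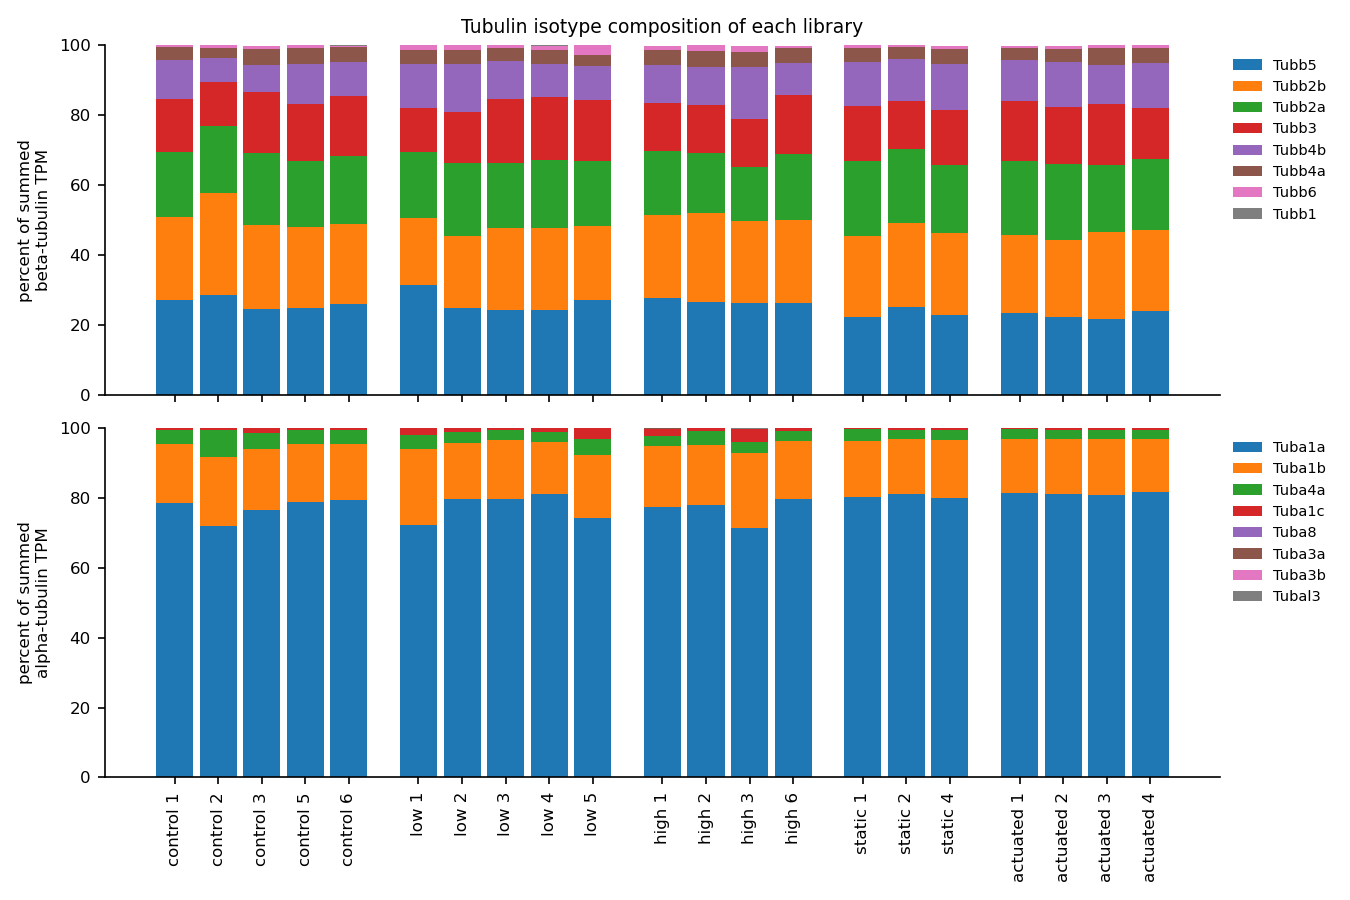
Share of each isotype in summed beta-tubulin TPM (top) and alpha-tubulin TPM (bottom), in percent, with 1 stacked bar for each of the 21 libraries. Tuba1a takes most of the alpha-tubulin bar in every library, and its share sits near 80.5% to 81.2% on both arrays.

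Among the microtubule-associated protein genes no difference passed the threshold in any comparison. Mapt (tau) came closest. It measured 947, 969, 1084, 1062 and 1022 CPM in controls and 682, 834, 704 and 919 at high intensity, without overlap. The other groups overlapped the controls, with 731, 926, 1111, 981 and 794 at low intensity, 1145, 1096 and 943 on the static array, and 1107, 1130, 1052 and 1039 on the actuated array. The high-intensity difference was −0.37 log2 units (SE 0.113, 95% interval −0.61 to −0.14), with an unadjusted p = 0.00300 and an edgeR adjusted p = 0.110. DESeq2 called it, with adjusted p = 0.0355.

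Map1b, the scaffold protein of growing axons, had its highest mean in controls. It measured 8261, 11120, 10300 and 9242 CPM in control replicates 1, 2, 3 and 5, and 8666 in replicate 6. The static array gave 8465, 8587 and 6116, the actuated array 9563, 8460, 7121 and 8213, low intensity 6867, 8187, 9862, 8648 and 8470, and high intensity 7586, 7869, 6009 and 9322. Every group overlapped the controls, and the lowest values came from high-intensity replicate 3 and static-array replicate 4. The difference from control was −0.31 log2 units at high intensity (SE 0.132, edgeR adjusted p = 0.247) and −0.30 on the static array (SE 0.144, adjusted p = 0.391).

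Map1a, the partner of Map1b that prevails in mature neurites, had the smallest ratio between group means, as given above. It ranged from 1165 to 1736 CPM in controls, from 1257 to 1515 at low intensity, from 993 to 1398 at high intensity, from 1178 to 1568 on the static array and from 1315 to 1476 on the actuated array. Its largest difference was at high intensity, at −0.30 log2 units against control (SE 0.119, edgeR adjusted p = 0.207). The ratio of Map1b to Map1a TPM was 9.93 ± 1.07 in controls, 9.15 ± 1.25 at low intensity, 8.67 ± 0.779 at high intensity, 7.63 ± 0.727 on the static array and 8.51 ± 0.618 on the actuated array (SD). Map1b thus exceeded Map1a per length in every group, and the ranges of the ratio in controls (8.33 to 11.2) and on the static array (6.89 to 8.34) overlapped only at their edge.

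Map2, the dendritic protein, ranged from 1328 to 1621 CPM in controls, 1130 to 1560 at low intensity, 995 to 1508 at high intensity, 1195 to 1410 on the static array and 1333 to 1387 on the actuated array. The high-intensity difference was −0.26 log2 units (SE 0.114, edgeR adjusted p = 0.268), and the static-array difference −0.18 (adjusted p = 0.579). The ratio of Mapt to Map2 TPM was 1.56 ± 0.562 in controls, where it ran from 0.896 to 2.35, and 1.89 ± 0.0532 on the static array (SD).

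The doublecortin family genes were the least abundant members. Dcx measured 425, 248, 398, 423 and 361 CPM in controls, with replicate 2 far below the others, and from 259 to 398 at low intensity, 222 to 371 at high intensity, 303 to 380.3 on the static array and 366 to 429.5 on the actuated array. Dclk1 ranged from 454 to 552 in controls, 398 to 534 at low intensity, 401 to 524 at high intensity, 468 to 549.5 on the static array and 485 to 588 on the actuated array. The high-intensity differences were −0.31 log2 units for Dcx (SE 0.158, edgeR adjusted p = 0.341) and −0.15 for Dclk1 (SE 0.104, adjusted p = 0.536). The ratio of Dcx to Dclk1 TPM was 1.05 ± 0.221 in controls, 0.744 ± 0.135 at low intensity and 0.703 ± 0.163 at high intensity (SD), and 0.888 ± 0.148 and 0.928 ± 0.109 on the static and actuated arrays.

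**Figure D3:**
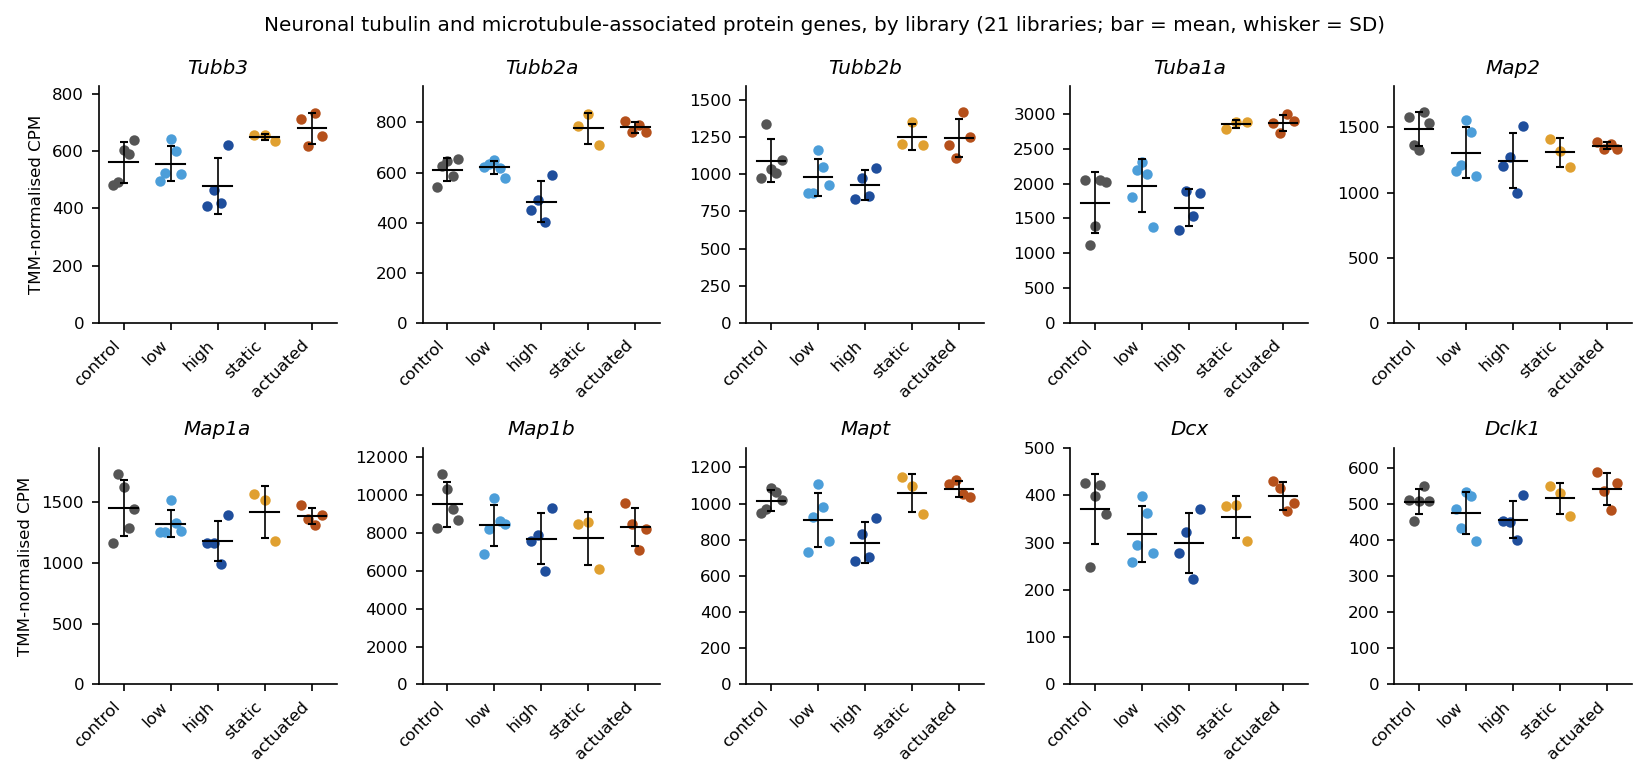
TMM-normalised CPM of each gene (1 panel each, axis from 0) in the 21 libraries by group; points are libraries, bars means and whiskers SD. Tuba1a on both arrays sits above every control library, and Mapt at high intensity sits below every control library.

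Seen together, the members gave no call at high intensity, yet each of the 10 had a negative estimate against control on TMM-scaled counts, from −0.06 log2 units for Tuba1a to −0.37 for Mapt. On the deposited TPM scale, where the median of all genes shifted by 0.53 log2 units (pseudocount 1), all 10 estimates were positive, and 8 of them lay below that median, all but Tuba1a and Dclk1. On protein-coding TPM the estimates of Tuba1a (0.10) and Dclk1 (0.16) were positive. On TMM-scaled counts the median of the 10 estimates was −0.28, beside 0.0033 over all genes fitted. Of the members, 6 (Tubb2a, Mapt, Map1a, Map1b, Map2 and Tubb2b) had an unadjusted edgeR p under 0.05, all 6 lower, while 15.9% of all genes did so in either direction. That count was 0 with all 26 libraries or on protein-coding TPM, 3 with only both groups fitted, and 2 to 8 in fits that left out 1 library (3 without high-intensity replicate 1, 2 without replicate 3, 4 without control replicate 6 and 8 without high-intensity replicate 6). After adjustment 0 of 10 members and 0.462% of all genes were called by edgeR, 2 members (Tubb2a and Mapt) and 3.17% of all genes by DESeq2, and 0 members and 0% of all genes by limma with quality weights. Without high-intensity replicate 6, edgeR called Tubb2a (adjusted p = 0.0232) and Mapt (adjusted p = 0.0451) and 2.7% of all genes.

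Summed cell type markers also shifted in this comparison, though of all markers only Mki67 and Top2a were called. The summed CPM of 7 pan-neuronal markers (Elavl3, Elavl4, Snap25, Syt1, Rbfox3, Syp and Ina) ranged from 1064 to 1608 at high intensity and from 1512 to 1775 in controls, and all 7 had counts in both groups. That of 7 fibroblast markers ranged from 821 to 2352 at high intensity and from 355 to 899.6 in controls, again with all 7 detected; 1 of them, Thy1, is also expressed by neurons. The summed CPM of 4 dividing-cell markers ranged from 296 to 868 against 164 to 227, and Mki67 and Top2a were called higher. Of 7 skeletal muscle markers 4 had counts in controls, with Myod1, Myog and Tnnt3 at 0, and 6 at high intensity, with Ckm at 0. Their summed CPM ranged from 8.46 to 66.9 in controls and from 16.3 to 171 at high intensity. Most of it was Des, which averaged 24.9 of 26.5 CPM in controls and 109.3 of 115.5 CPM at high intensity. Divided by the pan-neuronal sum of the same library, Mapt measured 59.8% ± 4.62 at high intensity and 60.8% ± 3.20 in controls (SD), and Tubb2a 36.7% ± 1.06 and 36.5% ± 1.71. By this ratio the mean at high intensity was above that of controls for 9 of 10 members, all but Mapt, for example Tuba1a at 126% ± 16.5 against 104% ± 31.3 and Dclk1 at 35.0% ± 2.85 against 30.4% ± 3.21. The pan-neuronal sum itself averaged 1321 CPM at high intensity and 1675 in controls, so a gene of unchanged CPM also rises by this ratio. The share of all genes that rose was not computed, so the count is not a result about the members. The part of these markers in the result was not tested beyond these ratios, and in bulk RNA fewer neurons and less RNA per neuron cannot be told apart.

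At low intensity no member was called against control, and none had an unadjusted p under 0.05. Estimates ran from −0.22 log2 units for Dcx (95% interval −0.53 to 0.09) to 0.19 for Tuba1a (−0.12 to 0.50), with a median of −0.15 beside −0.01 over all genes. The share of all genes called by edgeR was 0.597%. DESeq2 called 0 members and 3.26% of all genes, and limma with quality weights 0 members and 0.00679% of all genes. Without low-intensity replicate 3, 4 members had an unadjusted p under 0.05. The pan-neuronal marker sum also had a lower mean at low intensity, at 1181 to 1570 CPM against 1512 to 1775 in controls. Of the markers, Elavl4 was called lower and Nes, Vim and Top2a higher at low intensity than in controls. Between high and low intensity edgeR called 0 of 10 members and 0% of all genes, and 1 member (Tubb2a) had an unadjusted p under 0.05, as did 7.68% of all genes. DESeq2 called Tubb2a and 0.876% of the 5592 genes it adjusted, and limma with quality weights called 0 members and 0% of all genes. These 2 comparisons and that of high intensity with control share libraries, so their estimates are not independent.

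No member was called between the actuated and the static array. Estimates for actuated against static array ran from −0.04 log2 units for Map1a to 0.17 for Dcx, none had an unadjusted p under 0.05, and edgeR called 0 of 10 members and 0% of all genes. DESeq2 called 0 members and 0.034% of all genes, and limma with quality weights 0 members and 0% of all genes. The intervals bound the size of a difference that these 4 and 3 libraries can hide. That of Tubb2a ran from −0.22 to 0.24, that of Tuba1a from −0.37 to 0.38 and that of Dcx from −0.19 to 0.54. When the actuation difference was set against the high-intensity difference in 1 contrast, edgeR again called 0 members and 0% of all genes. Mapt (0.40 log2 units), Tubb2a (0.34) and Map1b (0.42) had unadjusted p-values of 0.0272, 0.0304 and 0.0470 there, with edgeR adjusted p of at least 0.719, while 6.69% of all genes had an unadjusted p under 0.05. In that contrast DESeq2 called 0 members and 0.034% of all genes, and limma with quality weights 0 members and 0% of all genes.

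**Figure D4:**
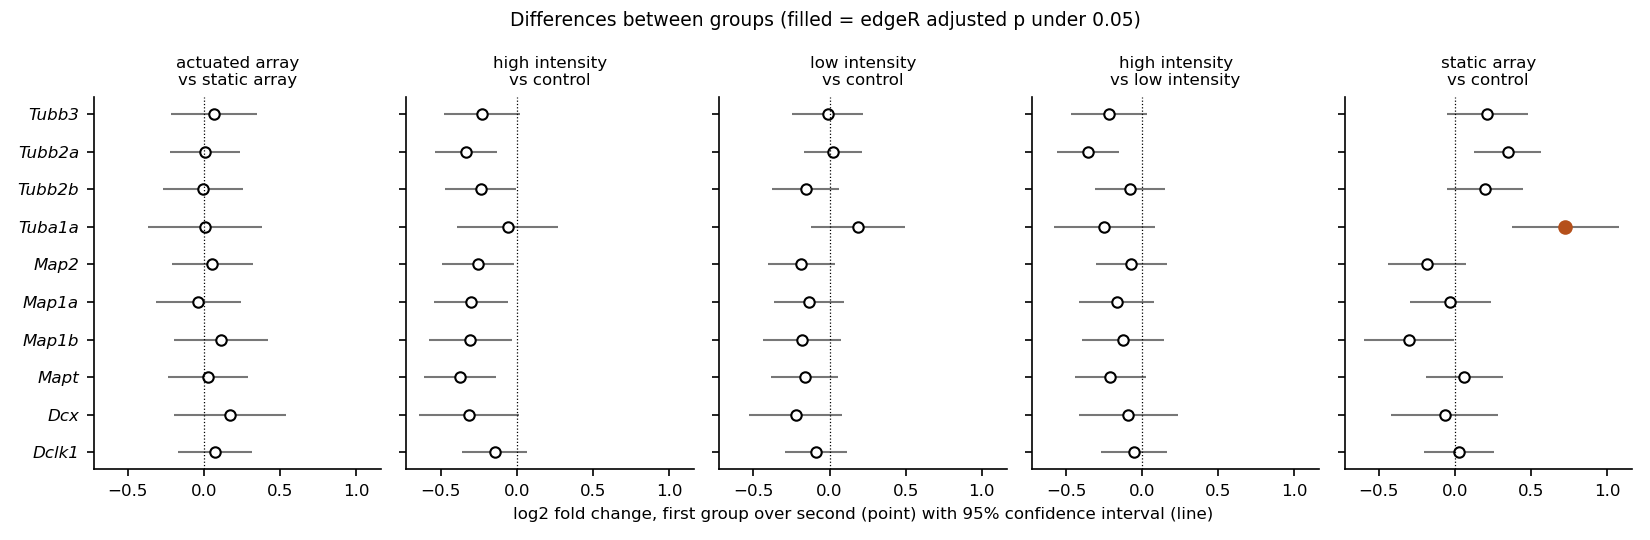
Log2 fold change of each gene (point) with its 95% confidence interval (line) in 5 comparisons, from edgeR; a filled point has an adjusted p under 0.05. Only Tuba1a in static array against control is filled, and all 10 points lie left of 0 for high intensity against control.

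Summed levels of other cell type markers also differed between the static array and the controls, though of all markers only Slc5a7 was called. The summed CPM of 4 astrocyte markers ranged from 2247 to 2873 on the static array and from 1344 to 1976 in controls. Most of it was Gfap, which averaged 2319 of 2536 CPM on the static array and 1516 of 1659 CPM in controls. Aqp4, Aldh1l1 and S100b also had higher means on the static array. The summed CPM of 4 oligodendrocyte-lineage markers ranged from 208 to 493.2 against 67.9 to 155, and that of 4 dividing-cell markers from 266 to 408 against 164 to 227. That of 8 neural progenitor and radial glia markers ranged from 2343 to 2562 against 1635 to 2136. Of these, Sox1 and Pax6 had lower means on the static array (20.4 against 23.0 CPM and 28.1 against 31.7). Nes was near level (126 against 123 CPM) and the rest had higher means. The summed CPM of 7 motor neuron markers ranged from 73.7 to 89.1 against 105 to 162. Slc5a7, the choline transporter, fell by 1.88 log2 units (edgeR adjusted p = 0.00392). All of these markers had counts in both groups. The pan-neuronal sum overlapped, at 1409 to 1694 against 1512 to 1775. Relative to that sum, Tuba1a measured 180.3% ± 21.6 on the static array and 104% ± 31.3 in controls (SD), and Tubb2a 48.8% ± 1.92 and 36.5% ± 1.71. By this ratio 7 of 10 members had a higher mean on the static array and 3 (Map2, Map1b and Dcx) a lower one. The pan-neuronal sum averaged 1596 CPM on the static array and 1675 in controls, and the share of all genes with a higher ratio was not computed. The part of these markers in the Tuba1a difference was not tested.

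A wider list of 95 microtubule genes, covering other tubulins, further binding and plus-end proteins, folding factors, modifying enzymes, severing enzymes and kinases, was read in the same fits, and 85 of them passed the low-count filter. Against control, 1 gene fell at high intensity. Map7d2, which binds microtubules and recruits kinesin, averaged 224 ± 42.9 CPM against 409 ± 114 in controls (SD), a difference of −0.87 log2 units (SE 0.176, edgeR adjusted p = 0.0391). This call was lost in 11 of 21 fits without 1 library (adjusted p up to 0.140, without high-intensity replicate 3) and with limma, all 26 libraries or only both groups fitted. On the static array 1 gene rose. Tubb4b, a widely expressed beta-tubulin, averaged 467 ± 10.1 CPM against 288 ± 59.6 (SD), a difference of 0.70 log2 units (SE 0.148, adjusted p = 0.0250), and measured 457 ± 22.8 on the actuated array. It was lost without control replicate 3 (adjusted p = 0.0583) or static-array replicate 1 (0.0759), 2 (0.110) or 4 (0.145), and with all 26 libraries or only both groups fitted.

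No gene of the wider list was called in the other 4 comparisons. The smallest p-values at low intensity were those of Tuba1c (1.27 log2 units, edgeR adjusted p = 0.0612) and Tubb6 (1.05, adjusted p = 0.0885), both higher than in controls. DESeq2 called both, with adjusted p = 0.0124 and 0.0295, beside 3.26% of all genes. Tuba1c was called in 5 of 15 other settings and 2 of 21 fits without 1 library, and Tubb6 in 5 of 16 and 1 of 21. Between high and low intensity they were those of Map7d2 (−0.57, adjusted p = 0.413) and Clasp1, a plus-end stabiliser (0.28, adjusted p = 0.594). Between the arrays they were those of Clasp1 (0.20) and Mark1, a kinase of tau and MAPs (0.22), both with adjusted p = 1, and in the contrast of both differences those of Map7d2 (0.82, adjusted p = 0.646) and Mark1 (0.51, adjusted p = 0.681). With no filter on low counts, edgeR called Map7d2 between high and low intensity (adjusted p = 0.0110) and in the contrast of both differences (adjusted p = 0.0158). In that setting 0.338% and 0.66% of all genes were called. The median of the 85 genes was −0.07 log2 units at high intensity, −0.07 at low intensity and −0.02 on the static array, each against control.

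Across the 21 libraries the member most like Tubb3 was Tubb2a, with a Pearson correlation of log2 CPM of 0.885, the highest of 11775 genes with a mean CPM of at least 5. The next were Adap1 (0.883), H2-D1 (0.881), Slc25a4 (0.879) and Tmem130 (0.877). Mapt ranked 16 (0.840), Tubb2b 106, Tuba1a 146, Dclk1 236, Dcx 246, Map1a 739, Map2 1124 and Map1b 3220. Among other pairs the correlation was 0.851 between Dcx and Dclk1, 0.807 between Map1a and Map1b, 0.806 between Mapt and Dcx, 0.802 between Mapt and Tubb2a and 0.786 between Map2 and Dcx, while Tuba1a and Map1b gave −0.212. With each group's mean subtracted, Tubb3 and Tubb2a gave 0.748 and Map1a and Map1b 0.877. These values are descriptions over libraries that share groups, depth and cell makeup.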

How the data were processed

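RNA sequencing was done on 26 libraries of 5 labelled groups. Per the labels' protocols, RNA was isolated with RNeasy Micro columns and libraries were made from 4 ng (full volume for the 8 weakest samples, which are not identified) with a kit that removes rRNA fragments by ZapR cleavage, and read as 50-base pairs on a Singular G4. The authors deposited estimated counts, written as whole numbers, and TPM values per Ensembl gene. Per the submitters' processing notes, BWA 0.7.12-r1039, bedtools 2.25.0, STAR, Salmon and the builds mm10, hg19 and GRCm39 were used, with roles not given in the sources used here. In the deposited TPM the 7SL genes Rn7s1 and Rn7s2 took 11.9 to 61.0% of each of the 21 deeper libraries. Their share was 27.8 to 61.0% in controls, 11.9 to 19.9% at low intensity and 12.1 to 32.7% at high intensity. It was 19.2 to 30.2% on the static array and 14.7 to 26.9% on the actuated array. Levels were therefore rescaled to protein-coding genes.

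Counts were tested with edgeR 4.0.16 (R 4.3.3): quasi-likelihood F-test, all 5 groups in 1 fit of the 21 deeper libraries, filterByExpr (14730 genes), TMM, Benjamini-Hochberg over all genes, threshold 0.05. Chi-square statistics per degree of freedom over all 325 pairs of libraries were 4.74 to 646, so none was a repeat of another. Isotype shares were compared by exact permutation tests. The 10 members and all lists were chosen with earlier results of these data known. All members are named; of the wider list, genes past the threshold (up to 6 a comparison) or else the 2 of smallest p; and the 5 genes most like Tubb3. Alternatives were DESeq2 1.42.0, limma 3.58.1, other scalings, filters and thresholds, all 26 libraries, thinning, a replicate block, TPM scales and leaving out each library. Limma on protein-coding TPM and summed near-identical tubulins were added after seeing the data. Reads carry no stated molecular identifiers. Same-numbered libraries are not stated to be linked, and their deviations correlated between −0.272 and 0.244, so numbers were not treated as pairs. A sequence of the alpha-tubulin genes is not reported here.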

Additional observations from a re-analysis of the deposited data

Results flagged for a closer look

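The Tubb3 share of beta-tubulin TPM in high-intensity replicate 6 was 16.8%, whereas the other 3 high-intensity libraries lay between 13.6 and 13.9%. The gap to its nearest neighbour was 0.925 of the range of the 4 libraries, beyond the 95% limit of Dixon's test. It was 1 of 48 groups of values examined, and chance alone marks about 1 group in 20. The same library had the highest CPM of its group for 9 of 10 members, all but Tuba1a, the highest pan-neuronal marker sum (1608 CPM against 1064 to 1391) and the lowest fibroblast marker sum (821 CPM against 1073 to 2352). The part of these markers in its Tubb3 share was not tested.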

How the results depend on the processing

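Tuba1a, the 1 member called on the static array against control, kept its direction in all settings run and its call in only some. It was not called (0 members) with all 26 libraries (0.62 log2 units, edgeR adjusted p = 1), with only the groups compared (0.129), after thinning every library to 1551334 counts in total (0.0547), at a threshold of 0.01, or by limma on log2(protein-coding TPM + 1) (0.77, adjusted p = 0.248). With the replicate number as a block it was 0.75 with adjusted p = 0.150 (0 members called, and 36 genes in all against 105; high intensity 2 against 68, low intensity 8 against 88). Those libraries share only a number. DESeq2 (adjusted p = 0.00414) and limma with quality weights (0.00866) called 2 members there, Tuba1a and Tubb2a, with 2.59% and 1.03% of all genes, and DESeq2 called 2 at high intensity against control (3.17% of all genes) and 1 against low intensity (0.876%). Leaving out 1 library gave 0 to 1 members on the static array (Tuba1a 0.60 to 0.79, adjusted p 0.0262 to 0.193) and 0 to 2 at high intensity.

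The deposited TPM scale moved the median of all genes by 0.64 (low intensity), 0.53 (high intensity) and 0.50 log2 units (static array) against control with a pseudocount of 1, and by 0.75, 0.64 and 0.62 with 0.1. On it limma called 6 members at low intensity and 3 on the static array with either pseudocount, and 1 at high intensity with 0.1, beside 36.9 and 37.6%, 7.41 and 7.77%, and 15.6% of all genes. All 10 members had positive estimates there at low and at high intensity, so 8 and 10 of them changed sign. Those called with the opposite sign at low intensity, with pseudocounts of 1 and 0.1, were Tubb3 (0.82 and 0.82), Tubb2b (0.60 and 0.60), Map1a (0.64 and 0.64) and Dclk1 (0.84 and 0.85), and at high intensity Dclk1 with 0.1 (0.65). On log2(protein-coding TPM + 1) the median moved by 0.04 (low intensity), 0.12 (high intensity) and 0.04 log2 units (static array) against control. The cause of the sign changes was not tested. Of 2220 member values under all settings, 2038 kept their side of the threshold and, where uncalled, moved by under 1 SE. A sign changed in 133, across 45 of the 60 pairs of gene and comparison. The 1 result called in the main fit, Tuba1a on the static array, was not among them. With the changed sign 9 of the 133 were called, as named above. Of the 133, 73 were on TPM scales, and 19 pairs changed sign outside them. No isotype share passed after adjustment in 230 values under other settings (lowest adjusted p = 0.286 by exact permutation). In the main setting the smallest p that a permutation test can give is 0.00794 to 0.0571, depending on the groups. After adjustment over 10 tests, a difference in 1 comparison alone could not pass there. Of the 230 values 16 changed sign, with all libraries for example the Tuba1a share at high intensity against control (0.777 percentage points). Map7d2 at high intensity kept its call in 8 of 16 other settings and 10 of 21 fits without 1 library, and Tubb4b on the static array in 11 of 16 and 17 of 21.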
